A study of Mus musculus with 20 samples.

Results

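Immediate early genes are the first genes to be transcribed when a cell is stimulated, and the 10 examined here were a list fixed by name: Fos, Fosb, Jun, Junb, Egr1, Egr2, Egr3, Atf3, Ier2 and Nr4a1. They are 10 of the 48795 Ensembl genes measured by bulk RNAseq in mouse embryonic hearts, and all 10 passed the filter on low values that left 15304 genes to be tested. The hearts were taken whole at E13.5 from 20 embryos: 10 WT, 5 Dp1Tyb and 5 labelled Dp1TybDyrk1a+/+/-. In Dp1Tyb mice the part of mouse chromosome 16 that is orthologous to human chromosome 21 is duplicated, and the strain serves as a model of Down syndrome. In the Dp1TybDyrk1a+/+/- mice the same duplication lies on one chromosome with a null allele of the kinase gene Dyrk1a (Dyrk1atm1Mla), which is meant to return the number of functional copies to that of WT. All mice were on the C57BL/6J background, and the Dp1TybDyrk1a+/+/- strain was founded by a single recombinant pup and kept apart with its own WT littermates. The series describes 5 WT littermates for each strain, but no label says which WT heart belongs to which strain, so both comparisons with WT use all 10 WT hearts and share these controls. Both alleles are carried in every cell, and the RNA came from the whole organ, so that fewer cells of a type and less RNA per cell cannot be told apart.

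Most of these genes need no new protein to be switched on. Growth factor signals reach them through the kinases ERK and RSK, which act on serum response factor with its partners at CArG boxes and on CREB at cyclic AMP response elements. Their products are themselves transcription factors: Fos and Jun proteins pair to form AP-1, which binds TGANTCA, and EGR proteins bind GC-rich sites. In hearts they are known for a rapid rise after stretch, hypoxia, injury or the handling of the tissue, and EGR and AP-1 factors also act in the formation of valves and vessels.

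The DNA before the start sites holds the elements through which these signals are read. RefSeq promoter windows of GRCm38.p6, the build the submitters name, were matched to 7 of the 10 genes, with 11 windows in all. The 250 bases before each start were searched on both strands for the CArG box, for the full cyclic AMP response element TGACGTCA, for its shorter form TGACG, for TGANTCA, for the EGR motif GCGNGGGCG and for TATAAA. Within these 250 bases a CArG box was found before Egr2 and before none of the other 6 genes. Of all 27025 genes with a window, 1.62% held it. Sequence farther from the starts was not searched. The 4 windows of Egr2 with a CArG box are 4 of the 11, against 1.47% of all 32851 windows. Those that begin at 67537619, 67537620 and 67537680 overlap, so these windows are not separate observations. TGACG lay before 6 of the 7 genes (all but Jun), against 19.8% of all genes, and any match to TGACGTCA would also count as TGACG. TGACGTCA and TGANTCA were found before 0 of the 7 genes, against 1.77% and 7.82% of all genes. GCGNGGGCG was found before Fosb and Nr4a1 (5.33% of all genes) and TATAAA before Fos (14.3%). A match is a run of letters and not a measured binding site. A window of Egr2, at chr10:67537316-67537565 on the plus strand, is shown for the CArG box in capitals, which lies 63 to 72 bases before this start. The other Egr2 windows with a match begin at 67537619 or later, past this box, so their match is another one and is not shown. Those of Fos (chr12:85473640-85473883, plus strand) and Nr4a1 (chr15:101266596-101266775, plus strand) are shown for TGACG, in capitals on either strand, and were chosen after the matches were seen, as the members with a single window and more than 1 match. Fos has it 62 to 66 and 125 to 129 bases before the start. Of the 4 matches before Nr4a1, the 2 farthest from the start are in the stretch shown.
Egr2: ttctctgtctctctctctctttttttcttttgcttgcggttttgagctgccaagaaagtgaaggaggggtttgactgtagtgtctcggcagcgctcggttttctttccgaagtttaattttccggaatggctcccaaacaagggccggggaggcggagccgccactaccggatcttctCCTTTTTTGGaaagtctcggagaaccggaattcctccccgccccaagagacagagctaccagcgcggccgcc
Fos: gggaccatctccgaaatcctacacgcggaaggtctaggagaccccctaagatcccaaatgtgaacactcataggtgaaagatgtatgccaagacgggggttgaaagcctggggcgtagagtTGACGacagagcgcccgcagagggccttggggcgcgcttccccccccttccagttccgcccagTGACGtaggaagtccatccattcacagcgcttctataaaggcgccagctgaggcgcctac
Nr4a1: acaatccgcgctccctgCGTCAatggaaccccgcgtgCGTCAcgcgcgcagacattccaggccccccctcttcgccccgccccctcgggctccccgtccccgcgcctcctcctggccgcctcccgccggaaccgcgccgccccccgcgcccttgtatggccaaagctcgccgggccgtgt

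Before the members are described, some facts of the whole series bear on how they can be read. The deposited values are log2-transformed normalized counts, scaled together over the 20 libraries, and read totals were not analysed here, so that library depth is unknown and precision can be judged from the scatter of the hearts alone. Values of weakly expressed genes are drawn towards the mean of the gene. Poisson counting alone would give Egr3, at a mean of 10.6 normalized counts, an SD of 0.443 on the log2 scale if 1 normalized count stood for about 1 read, while its SD between hearts was 0.034. The same held for Fosb, Egr2, Fos, Junb, Nr4a1 and Ier2, whose SDs were all under that of counting, so their fold changes and intervals are those of the deposited scale and may understate changes of the RNA. The targeted gene, Dyrk1a, ran from 11.28 to 11.43 on the log2 scale in the WT hearts, was at 11.67, 11.65, 11.66, 11.71 and 11.75 in the Dp1Tyb hearts and at 11.70, 11.85, 11.78, 11.75 and 11.74 in those labelled Dp1TybDyrk1a+/+/-. Its RNA was thus not lower in the hearts labelled with the null allele. RNA may still be made from such an allele, so the count over the whole gene cannot check it, and other checks of the allele are not analysed here. Lanes 3, 6 and 7 held 4, 4 and 2 WT hearts, 2, 2 and 1 Dp1Tyb hearts and 1, 1 and 3 hearts labelled Dp1TybDyrk1a+/+/-. The defining markers of cardiac muscle were present in all hearts, with a mean log2 value over 10 genes between 14.41 and 14.82.

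Jun, which encodes the core AP-1 subunit, was by far the most abundant of the 10 genes in E13.5 hearts, and Egr3, Fosb and Egr2 were the least abundant. Per kilobase of exon, the mean over the 20 hearts was 473 normalized counts for Jun, which placed it at the 92.0th percentile of the genes tested. Ier2, a small nuclear regulator of transcription, followed with 231 normalized counts per kilobase. Atf3, a stress-induced member of the ATF family, had 104, and Egr1, a zinc finger factor induced by stretch and growth factors, had 92.1. The AP-1 subunits Junb and Fos came next with 42.7 and 28.2 normalized counts per kilobase. Nr4a1, an orphan nuclear receptor, had 17.4, although its 10903 bases of exons over all annotated transcripts lower its value per length. Egr2, known for its role in myelination and hindbrain patterning, had 5.37, Fosb 2.92 and Egr3 2.26, which placed these 3 genes under the 10th percentile. Of the neighbours in this order, only Atf3 and Egr1 overlapped between hearts on the deposited scale. Values of weak genes are drawn together on that scale. The lack of overlap among Egr2, Fosb and Egr3 thus does not show that their RNA kept this order in every heart. The lowest Atf3 heart was at 89.2 and the highest Egr1 heart at 118 normalized counts per kilobase. Junb shares exon sequence with Prdx2 on the opposite strand, and Jun with the antisense RNA Junos. The strand setting of the counting is not given in the sources used here, so reads of these partners cannot be told apart. Junos had a mean of 6.77 normalized counts, far under Jun, whereas Prdx2 had 4615, and its values correlated with those of Junb within genotypes (r = 0.505 over 20 hearts, a description).

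In the comparison of Dp1Tyb with WT hearts, which asks what the extra copy of the duplicated genes does to expression, no immediate early gene passed the test. Of the 10 genes 0 were called (limma, Benjamini-Hochberg adjusted p under 0.05), against 471 of 15304 genes tested, 3.08%, and 0 of the 10 had an unadjusted p under 0.05, against 15.6% of all genes. Their log2 fold changes ran from -0.020 for Atf3 to 0.063 for Ier2 and Jun. The median was 0.00079, beside -0.0019 over all genes, and the median size of change was 0.015, beside 0.031 over all genes.

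Among the AP-1 subunits, the log2 values of Jun (ENSMUSG00000052684, chr4:95049036-95052222 in GRCm38.p6) were 10.53, 10.60, 10.52, 10.79 and 10.60 in Dp1Tyb hearts 1 to 5, and ran from 10.48 through a median of 10.54 to 10.63 in WT hearts. Dp1Tyb heart 4 lay above all others and the remaining 4 lay among the WT hearts. This gave a log2 fold change of 0.063 (standard error (SE) 0.043, adjusted p = 0.539 by limma), with a 95% interval that allowed between 0.981- and 1.11-fold. Without Dp1Tyb heart 4 it was 0.018. Fos (ENSMUSG00000021250, chr12:85473890-85477274) was at 5.97, 6.05, 6.04, 6.26 and 6.10 in Dp1Tyb hearts and between 5.98 and 6.11 in WT hearts, with a median of 6.06. Heart 4 again lay above all WT hearts, and the log2 fold change of 0.037 (SE 0.036, adjusted p = 0.694 by limma) became -0.0069 without it. Junb (chr8:84976909-84978748) was at 6.66, 6.67, 6.66, 6.75 and 6.62 in Dp1Tyb hearts, within the WT range of 6.59 to 6.84 around a median of 6.64. Fosb (chr7:19302696-19310118), the weakest AP-1 subunit here, stayed between 4.15 and 4.27 in Dp1Tyb and between 4.13 and 4.25 in WT hearts. The log2 fold changes of Junb and Fosb were -0.0091 (SE 0.047) and -0.0030 (SE 0.021), and the groups overlapped for all 4 subunits.

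The EGR factors and the remaining members were also short of the threshold. Egr1 (ENSMUSG00000038418, on chromosome 18) was at 8.66, 8.76, 8.65, 8.93 and 8.58 in Dp1Tyb hearts, against 8.57 to 8.75 with a median of 8.66 in WT hearts. Only heart 4, and narrowly heart 2, passed the highest WT heart, and the log2 fold change of 0.050 (SE 0.066, adjusted p = 0.791 by limma) became -0.0042 without heart 4. Egr2 (chr10:67534469-67542188) and Egr3 (chr14:70077317-70082613) differed by -0.0077 (SE 0.024) and 0.0013 (SE 0.018). Ier2 (ENSMUSG00000053560, chr8:84661331-84662852) came closest to the threshold of all members. It was at 8.43, 8.55, 8.50, 8.55 and 8.49 in Dp1Tyb hearts and between 8.34 and 8.53, with a median of 8.44, in WT hearts. Of the 5 Dp1Tyb hearts, 4 lay above the WT median, with 2 above the highest WT heart, and the log2 fold change was 0.063 (SE 0.034, limma p = 0.0780 unadjusted and 0.394 adjusted). It was 0.053, 0.11 and -0.00066 within lanes 3, 6 and 7. Atf3 (chr1:191170296-191183333) was at 7.91, 7.96, 7.77, 8.18 and 8.02 in Dp1Tyb hearts, on both sides of the WT median of 7.96. Nr4a1 (chr15:101253902-101274795) was at 7.52, 7.52, 7.54, 7.75 and 7.54, with heart 4 above all 10 WT hearts (7.42 to 7.66) and the others below the WT median of 7.58.

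**Figure D1:**
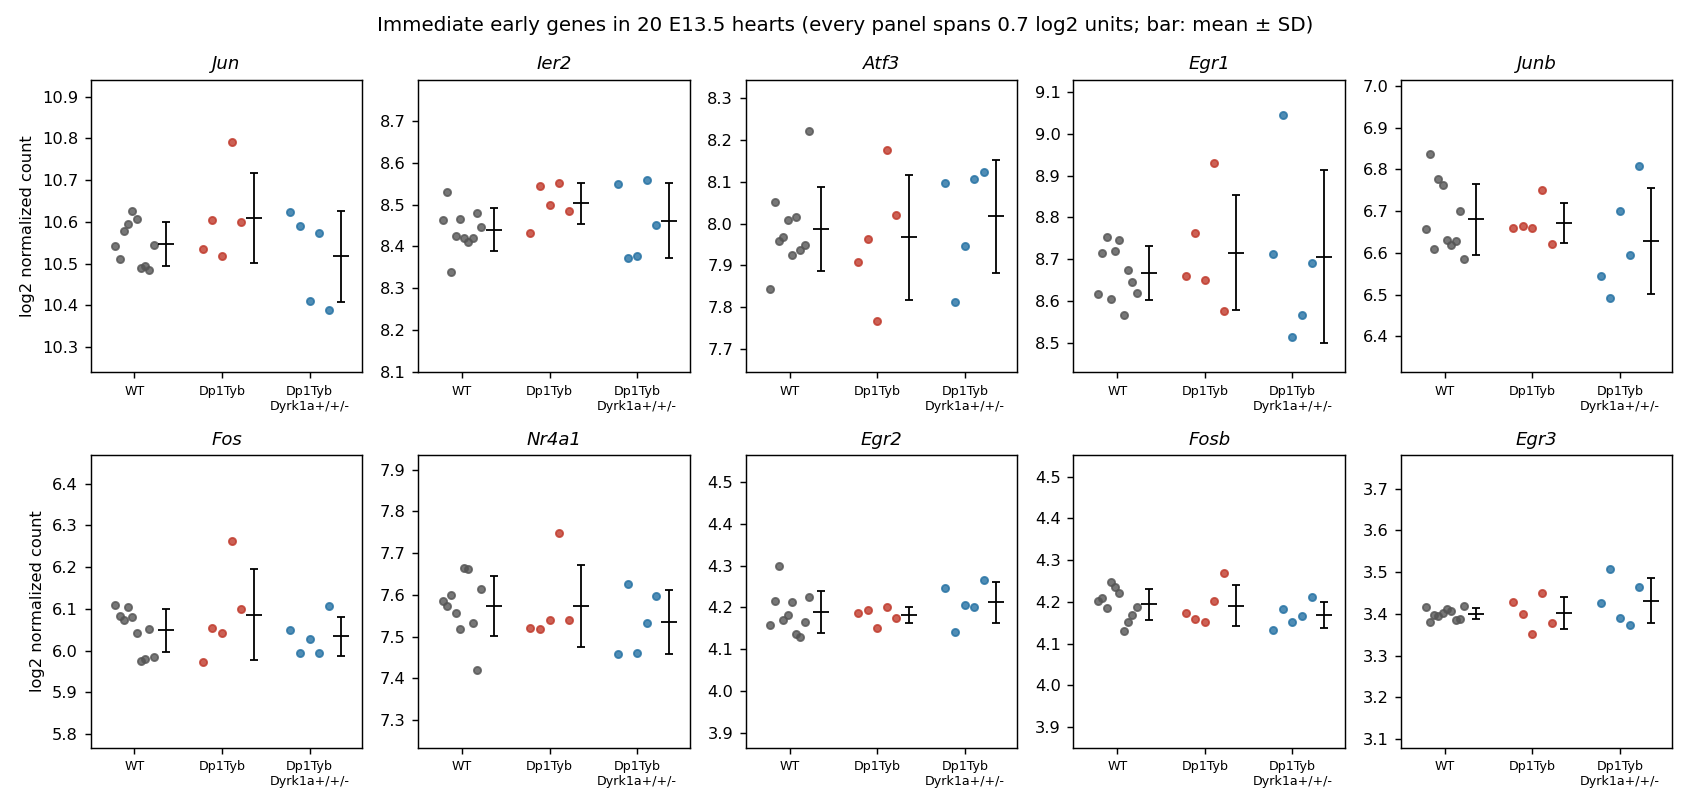
Log2 normalized count of each of the 10 genes (vertical axes, each spanning 0.7 log2 units) in 10 WT, 5 Dp1Tyb and 5 Dp1TybDyrk1a+/+/- hearts, points in the order of the replicate numbers, with the mean and SD of each genotype as a bar beside the points. The genotypes overlap in every panel, and the fourth Dp1Tyb heart is the highest Dp1Tyb heart in every panel but that of Fosb.

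Hearts labelled Dp1TybDyrk1a+/+/- also gave no call against WT hearts in these genes. In this comparison 0 of 10 members were called and 0 had an unadjusted p under 0.05, against 0.712% and 9.64% of all genes (limma). Over all genes 0.627% were called higher and 0.0849% lower, and the groups did not overlap in 0.64%, whereas they overlapped for all 10 members. The log2 fold changes ran from -0.053 for Junb (SE 0.047) to 0.040 for Egr1 (SE 0.066), with 5 above and 5 below 0 and a median of 0.0039, beside -0.0030 over all genes. Junb was at 6.54, 6.49, 6.70, 6.59 and 6.81 in hearts 1 to 5 labelled Dp1TybDyrk1a+/+/-. Hearts 1 and 2 lay below all WT hearts and heart 5 close to the highest of them, and the log2 fold change of Junb was -0.098 without heart 5 and -0.019 without heart 2. Its difference from WT was -0.19, 0.14 and -0.011 within lanes 3, 6 and 7. Egr1 was at 8.71, 9.05, 8.51, 8.57 and 8.69, so that heart 2 lay 1.45-fold above heart 3, the widest range of any member over the 20 hearts. Without heart 2 the log2 fold change of Egr1 was -0.045. Egr3 had the smallest unadjusted p of the members here, 0.0911 (limma, adjusted p = 0.584), with a log2 fold change of 0.032 (SE 0.018) that ran from 0.013, without heart 2, to 0.047, without heart 4.

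Between Dp1Tyb hearts and hearts labelled Dp1TybDyrk1a+/+/-, 0 of 10 members were called and 0 had an unadjusted p under 0.05, against 1.16% and 18.5% of all genes (limma). Over all genes 0.425% were called higher and 0.738% lower, and the groups did not overlap in 5.65%, whereas they overlapped for all 10 members. The log2 fold changes ran from -0.050 for Atf3 (SE 0.072) to 0.093 for Jun (SE 0.050, adjusted p = 0.326 by limma), and 7 of 10 were above 0. Their median was 0.030, beside 0.0028 over all genes, and their median size was 0.040, beside 0.042. Jun was at 10.62, 10.59, 10.41, 10.57 and 10.39 in hearts labelled Dp1TybDyrk1a+/+/-, of which the third and the fifth lay below all Dp1Tyb and all WT hearts. The interval of the Jun difference allowed between 0.992- and 1.15-fold, the difference was 0.047 without Dp1Tyb heart 4, and within lanes 3, 6 and 7 it was -0.020, 0.27 and 0.010. Fos was at 6.05, 5.99, 6.03, 5.99 and 6.11, within the range of the Dp1Tyb hearts, with a log2 fold change of 0.052 (SE 0.042) between these groups, which was 0.0073 without Dp1Tyb heart 4 and 0.080 without Dp1Tyb heart 1. Intervals of this width do not show that the genotypes are alike. On the deposited scale, the widest interval among all members and comparisons, that of Egr1 between the mutant groups, reached from 0.902- to 1.12-fold.

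**Figure D2:**
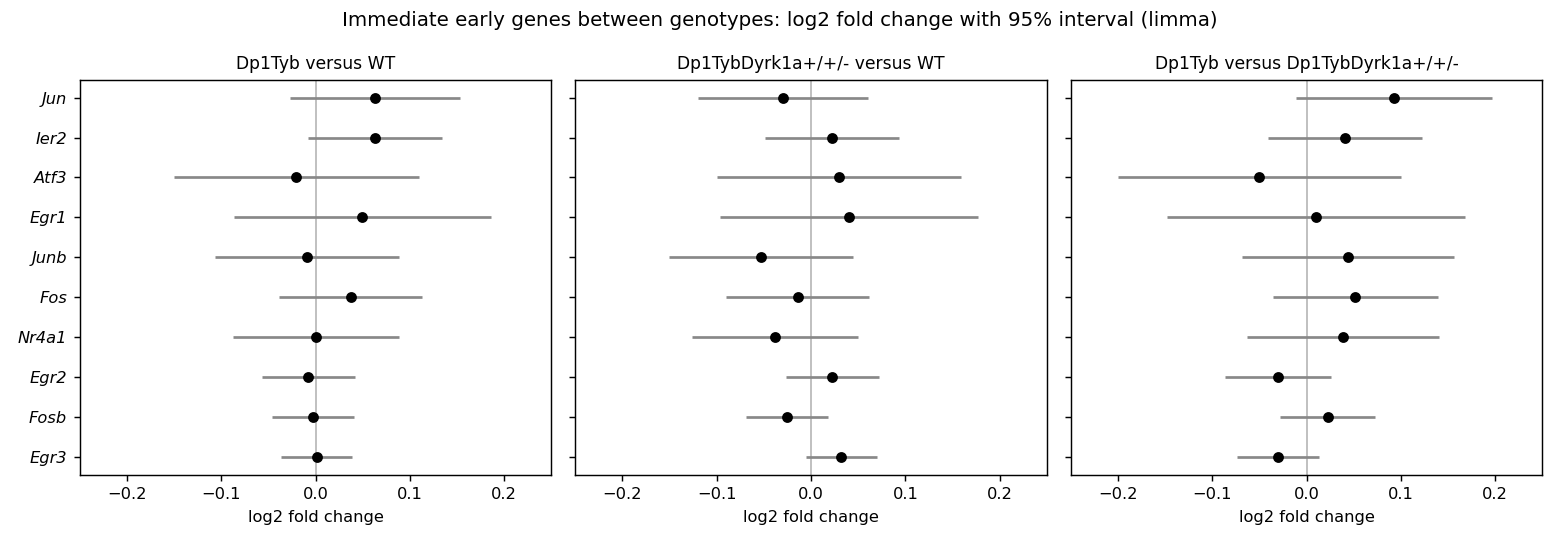
Log2 fold change (horizontal axis, dot) with its 95% interval from limma (line) of the 10 genes in the 3 comparisons, genes ordered by level per kilobase. All 30 intervals include 0, and the dots run from -0.053 to 0.093.

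No difference between genotypes passed the test, but single hearts stood apart. Dp1Tyb heart 4 was above the mean of its genotype in 10 of 10 genes, the highest Dp1Tyb heart in 9 of them (Fosb being the exception), and the highest of all 20 hearts for Jun, Fos and Nr4a1. Its mean deviation over the members was 1.49 SDs. The next highest were heart 5 labelled Dp1TybDyrk1a+/+/-, with 0.653, and WT heart 2, with 0.484. Dp1Tyb heart 3 was at the other end, with 0 of 10 genes above its genotype mean, the lowest value of the group in 5 genes and a mean deviation of -0.812 SDs. Both hearts were sequenced in lane 6. Among the 20 hearts, heart 4 also ranked 1st in the mean of 47 other rapid-response genes and of 18 AP-1 and ATF partner genes. It ranked 3rd for 12 hypoxia-induced genes, at 9.725, with WT heart 3 close below at 9.718. Its 10 erythroid markers (hemoglobin and other red cell genes) ranked 2nd, at 13.63, and lay 0.49 log2 units above the Dp1Tyb mean. Dp1Tyb heart 5 and heart 3 labelled Dp1TybDyrk1a+/+/- were both close to this, at 13.57. The latter had a mean deviation of -0.721 SDs over the members. Dp1Tyb heart 4 ranked 6th for heat shock genes and 15th for cardiomyocyte markers. The part of these levels in the values of the members was not tested.

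**Figure D3:**
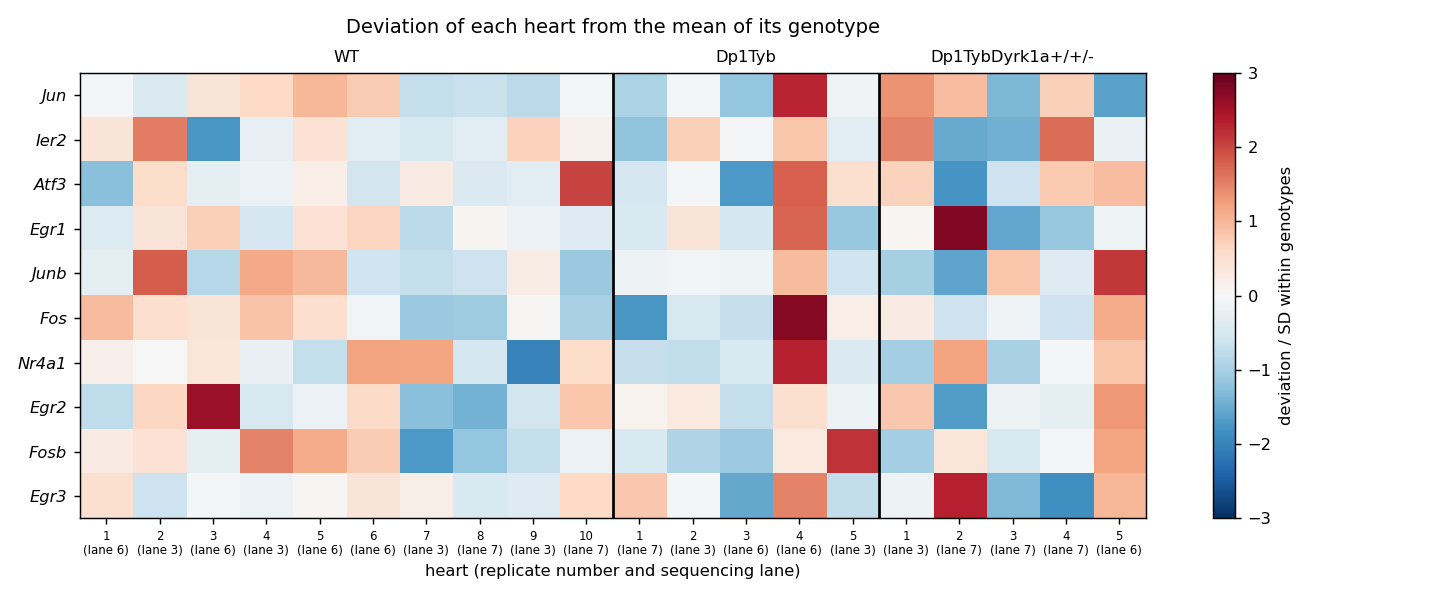
Deviation of each heart (columns, by genotype, with replicate number and sequencing lane) from the mean of its genotype for the 10 genes (rows), in units of the SD within genotypes. The column of Dp1Tyb heart 4 is above 0 in all 10 rows, and that of Dp1Tyb heart 3 in 0 rows.

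Egr1 and Atf3 were the members that varied most between hearts of one genotype. The SD within genotypes was 0.129 for Egr1 and 0.122 for Atf3, above those of 93.2% and 91.9% of the genes tested. Junb (0.0902), Jun (0.0833), Nr4a1 (0.0798) and Fos (0.0687) followed, and Ier2, at 0.0619, was near the median of all genes, 0.0592. The SDs of Egr2, Fosb and Egr3 were from 0.0338 to 0.0445, where values of weak genes are drawn together. Among genes within 1.5-fold of the same level, the members lay at a median of the 70.5th percentile, Egr1 at the 93.8th and Ier2 at the 44.4th. In WT hearts alone Egr1 was less spread, with an SD of 0.0648 at the 66.6th percentile of all genes tested, while Atf3 stayed at the 89.9th. Junb and Nr4a1 were at percentiles 83.9 and 74.5 in WT hearts. Jun, Fos, Ier2 and Egr2 were at 46.1, 45.9, 44.6 and 43.8, and Fosb and Egr3 at 18.6 and 0.085. Percentiles among genes of like level were not computed for WT hearts alone. No test of this spread was made.

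**Figure D4:**
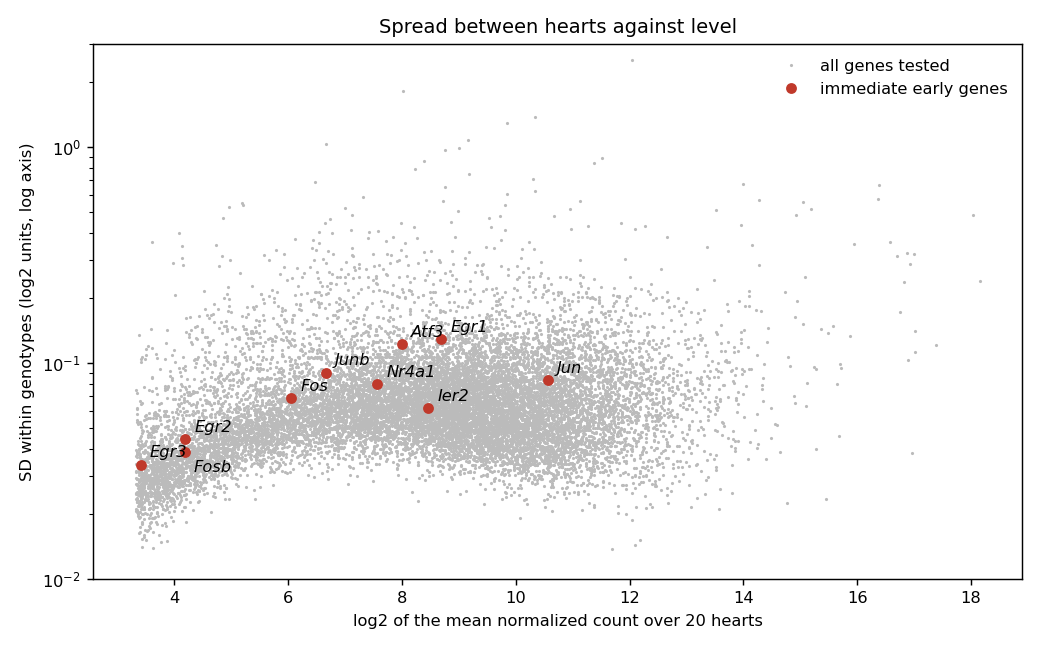
SD between hearts within genotypes (vertical log axis, log2 units) against the log2 of the mean normalized count over 20 hearts (horizontal axis) for the 15304 genes tested in grey and the 10 immediate early genes in red. Egr1 and Atf3, with SDs of 0.129 and 0.122, sit in the upper part of the cloud at their level, and Egr2, Fosb and Egr3 lie at low levels where the whole cloud is drawn down.

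Within genotypes, the members tended to be high and low in the same hearts, but no pair passed the threshold. Of 45 pairs, 36 had a Pearson r above 0, with a median of 0.243 and a mean of 0.216, where the mean over all pairs of genes tested was 0.00044. At an unadjusted p under 0.05 there were 6 pairs, and 0 after Benjamini-Hochberg adjustment over the 45 (100000 permutations of hearts within genotypes, two-sided), by r or by Spearman's rho. Fos and Junb had r = 0.553 (p = 0.00242, adjusted p = 0.109, permutation test) and rho = 0.541, with r = 0.619 without the 2 hearts farthest from the median of Fos, and 0.45, 0.47 and 0.268 within lanes 3, 6 and 7. Reads of Prdx2 may enter the values of Junb, as above. Egr1 and Egr3 had the highest r, 0.735 (p = 0.0088, adjusted p = 0.149, permutation test), with rho = 0.535. Without the 2 farthest hearts r fell to 0.452, and it was 0.27 in lane 3 and 0.436 in lane 6 but 0.917 in lane 7, which holds heart 2 labelled Dp1TybDyrk1a+/+/-. Jun and Egr1 had r = 0.568 and rho = 0.552 (adjusted p = 0.303, permutation test). With a linear trend over library number subtracted as well, 2 pairs passed, Fos and Junb at r = 0.515 and Egr2 and Atf3 at r = 0.606 (adjusted p = 0.0481 in both, permutation test), so that the absence of a call among the pairs depends on this choice, which was made after the data were seen. All points share the normalization of the table, and each heart is 1 library.

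Each member was also set beside the mean of 15 other gene lists, among them heat shock, hypoxia and cold-inducible genes and the markers of 9 cell classes. Of these 150 relations, 27 had an unadjusted permutation p under 0.05 and 0 passed adjustment by r, with 1 by rho. That one was Atf3 with the other rapid-response genes, at r = 0.755 (adjusted p = 0.0735, permutation test) and rho = 0.794 (adjusted p = 0.0195), with r = 0.71 without the 2 farthest hearts and 0.296, 0.6 and 0.911 within lanes 3, 6 and 7. Ier2 with the same list had r = 0.625 and Fos r = 0.672, with adjusted p of 0.194 in both (permutation test). Egr1 had r = 0.72 with smooth muscle markers and Egr2 r = -0.593 with erythroid markers (adjusted p = 0.194 in both, permutation test). Without the 2 farthest hearts these fell to 0.533 and -0.239. Within lanes 3, 6 and 7 they were 0.564, 0.0368 and 0.974 for Egr1, and -0.721, -0.729 and 0.121 for Egr2. Lane 7 holds heart 2 labelled Dp1TybDyrk1a+/+/-, the highest of all hearts for Egr1. The smooth muscle mean of this heart was also the highest, 0.409 log2 units above its genotype mean. The same heart was highest for fibroblast and cushion markers, and lowest for hypoxia-induced and cold-inducible genes.

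Lane and library number were tested as terms beside the genotype. Of the 10 members 0 were called for either (limma), as were 0 of all 15304 genes, with 5.17% and 4.83% at an unadjusted p under 0.05. Fos was the member with the smallest unadjusted p for both, 0.00739 for lane (adjusted p = 0.696) and 0.0183 for library number (adjusted p = 0.93). Its mean was 6.06 ± 0.044 (SD, n = 7) in lane 3, 6.10 ± 0.076 (SD, n = 7) in lane 6 and 5.99 ± 0.019 (SD, n = 6) in lane 7, which holds 3 of the 5 hearts labelled Dp1TybDyrk1a+/+/-. In order of library number, from 1 to 20, Fos was at 6.11, 6.07, 6.10, 6.08, 6.04, 6.08, 5.98, 5.98, 6.05 and 5.98 in the 10 WT hearts. Library numbers ran from 3 to 12 in Dp1Tyb hearts and from 9 to 18 in those labelled Dp1TybDyrk1a+/+/-, so that number and genotype move together in part. With lane in the fit, the log2 fold change of Fos between the latter and WT was 0.023 in place of -0.014. With library number as a linear term it was 0.014, that of Dp1Tyb versus WT was 0.0094 in place of 0.037, and that between the mutant groups was -0.0044 in place of 0.052. Under this fit 0 of 10 members were called in each comparison (limma), and Creb1, Crem, Rps6ka1 and Rbm3 had the same calls as without it.

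The genes whose pattern was most like that of the members were found by the correlation with the mean z-score of the 10 genes over the 20 hearts, genotype means subtracted. Ccn2, a matricellular protein gene induced by growth factors and stretch, came first of all genes outside the list with r = 0.82 (rho = 0.734, and 0.7 without the 2 farthest hearts), a description with no p. Its relative Ccn1 had r = 0.673, and Spry4, a feedback inhibitor of receptor tyrosine kinase signalling, r = 0.672. Egln3, an oxygen-sensing prolyl hydroxylase that hypoxia induces, had r = 0.701. Cldn12 (0.726), Gm13436 (0.693), AU022252 (0.687), Itch (0.684), Gm4335 (0.67) and Ccl7 (0.67) completed the first 10. The lowest r were those of Gmeb1 (-0.735), Lrrc25 (-0.701), Lpar2 (-0.685), Serpinb1a (-0.668) and Trmt11 (-0.667). In the same order, they were -0.694, -0.429, -0.68, -0.445 and -0.527 without the 2 farthest hearts. Among the members themselves, Fos was closest to this mean, of which each member is itself a part, with r = 0.798, and Ier2 farthest, with r = 0.338.

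A wider list of 50 other rapid-response genes, of which 47 were tested, was not called in any comparison either. In Dp1Tyb versus WT hearts 0 of 47 were called (limma), 4 had an unadjusted p under 0.05, and 32 of 47 had a log2 fold change above 0, where 48.5% of all genes did. In hearts labelled Dp1TybDyrk1a+/+/- versus WT the counts were 0, 3 and 13 of 47, against 47.4% of all genes above 0, and in Dp1Tyb versus Dp1TybDyrk1a+/+/- they were 0, 7 and 38 of 47, against 52%. Over all genes 15.6%, 9.64% and 18.5% had an unadjusted p under 0.05 in these comparisons. Dp1Tyb heart 4 had the highest mean of this list, 8.54. The other Dp1Tyb hearts were at 8.43 to 8.49, beside 8.43 to 8.50 in WT hearts. The counts above 0 were not made again without heart 4. The 3 comparisons share hearts, so these counts do not stand independently. The medians were 0.029, -0.026 and 0.046. Maff, a small MAF factor, had the largest value against WT in Dp1Tyb hearts, 0.11 (SE 0.037, adjusted p = 0.136 by limma). Ccn2 had -0.12 (SE 0.094, adjusted p = 0.697 by limma) in hearts labelled Dp1TybDyrk1a+/+/-, and Id3, an inhibitor of bHLH factors, had 0.21 (SE 0.098, adjusted p = 0.253 by limma) between the mutant groups.

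Of the genes that act upstream, 3 of 24 changed in Dp1Tyb compared to WT hearts (limma adjusted p under 0.05), against 3.08% of all genes, with 1 higher, where 1.81% of all genes were, and 2 lower, where 1.27% were. Rps6ka1, which encodes the ERK-activated kinase RSK1, rose. Its log2 values were 9.02, 8.98, 8.99, 8.98 and 8.91 in Dp1Tyb hearts and ran from 8.77 through a median of 8.84 to 8.88 in WT hearts. The groups did not overlap, as in 2.63% of all genes, and the log2 fold change was 0.14 (SE 0.023, adjusted p = 0.000965, limma). Within lanes 3, 6 and 7 the difference was 0.092, 0.14 and 0.25. Creb1, which encodes the factor CREB, fell. It was at 10.74, 10.73, 10.77, 10.83 and 10.77 in Dp1Tyb hearts, against 10.82 to 10.92 with a median of 10.89 in WT hearts, so that 4 of 5 lay below all WT hearts. The log2 fold change was -0.11 (SE 0.026, adjusted p = 0.0192, limma), and -0.11, -0.092 and -0.15 within lanes 3, 6 and 7. Crem, a relative of CREB that also gives the inducible repressor ICER, fell by 0.13 on the log2 scale (SE 0.029, adjusted p = 0.0178, limma). It was at 7.73, 7.85, 7.81, 7.84 and 7.76 in Dp1Tyb and between 7.78 and 7.98, with a median of 7.93, in WT hearts. All 5 Dp1Tyb hearts lay below the WT median, and 1 WT heart lay among them. Creb1 lost its call without Dp1Tyb heart 1, 2 or 3, at -0.105, -0.103 and -0.111, and Crem without Dp1Tyb heart 1 or 5, at -0.11 and -0.12.

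None of the 24 upstream genes was called in the other comparisons (limma), against 0.712% and 1.16% of all genes. At an unadjusted p under 0.05 there were 4 and 8, against 9.64% and 18.5% of all genes. Creb1, Crem and Rps6ka1 differed from WT by -0.0023, -0.041 and 0.050 in hearts labelled Dp1TybDyrk1a+/+/-, and Dp1Tyb differed from those hearts by -0.11, -0.086 and 0.091. Thus no difference between the mutant groups passed the threshold for these 3 genes, and their call in one comparison only is not shown to be a difference. Nab1, a corepressor of EGR factors, had the largest value in hearts labelled Dp1TybDyrk1a+/+/- versus WT, 0.093 (SE 0.033, adjusted p = 0.344 by limma), and Map2k2, the ERK kinase MEK2, the largest between the mutant groups, 0.19 (SE 0.080, adjusted p = 0.213 by limma).

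**Figure D5:**
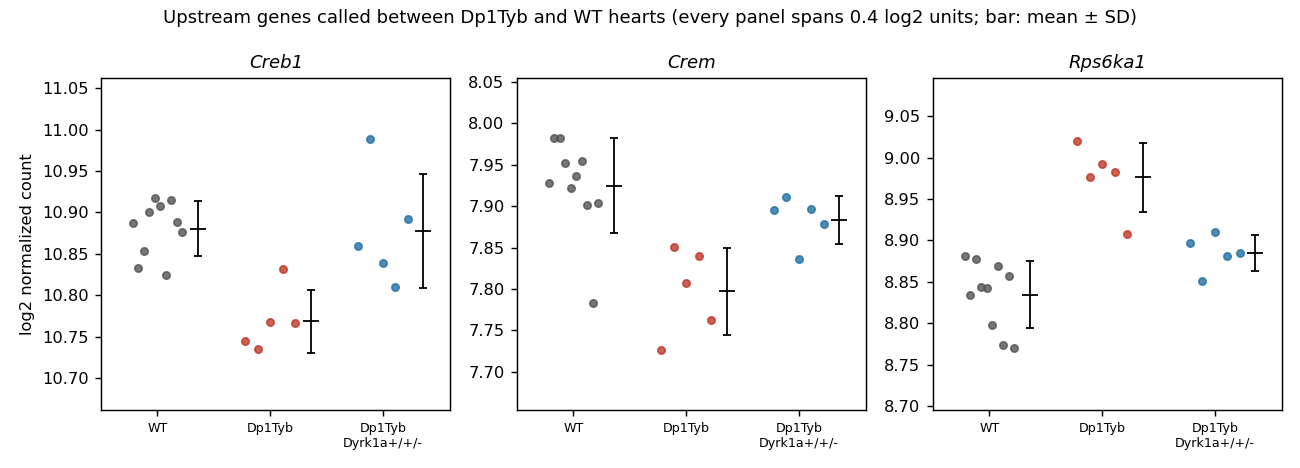
Log2 normalized count (vertical axes, each spanning 0.4 log2 units) of Creb1, Crem and Rps6ka1 in 10 WT, 5 Dp1Tyb and 5 Dp1TybDyrk1a+/+/- hearts, with the mean and SD of each genotype as a bar beside the points. All 5 Dp1Tyb points of Rps6ka1 lie above the 10 WT points, and 4 of the 5 of Creb1 lie below them.

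Partners and stress genes were described from the same fit. Of 18 AP-1 and ATF partner genes, 15 heat shock genes and 12 hypoxia-induced genes, 0 were called in any of the 3 comparisons (limma), with unadjusted counts of 3, 1 and 0 in Dp1Tyb versus WT, 1, 1 and 0 in Dp1TybDyrk1a+/+/- versus WT and 0, 3 and 0 between the mutant groups. The shares of all genes at an unadjusted p under 0.05 were 15.6%, 9.64% and 18.5% in these comparisons. The largest values in Dp1Tyb versus WT hearts were 0.11 for Maff, which both this list and the rapid-response list hold, -0.080 for the chaperone gene Hsp90aa1 (SE 0.028, adjusted p = 0.148 by limma) and 0.097 for the glucose transporter gene Slc2a1 (SE 0.051, adjusted p = 0.380 by limma). Of the cold-inducible pair, Rbm3, which encodes an RNA-binding protein that rises on cooling, fell in Dp1Tyb hearts by 0.22 on the log2 scale (SE 0.031, adjusted p = 0.000114, limma), being between 11.93 and 12.06 there and between 12.16 and 12.28 in WT hearts. It was also lower than WT in hearts labelled Dp1TybDyrk1a+/+/-, at 11.96 to 12.15, by a log2 fold change of -0.16 (SE 0.031, adjusted p = 0.00688, limma). Neither group overlapped with WT, as in 2.63% and 0.64% of all genes, and 1.27% and 0.0849% of all genes were called lower in the same comparisons. Between the mutant groups Rbm3 differed by -0.059 (SE 0.036, adjusted p = 0.384 by limma). Cirbp, the other of the pair, gave 0.038 (SE 0.064, adjusted p = 0.841 by limma). The 9 lists of cell type markers, for cardiomyocytes, endothelium and endocardium, fibroblasts and cushions, epicardium, smooth muscle, red cells, macrophages, neurons and glia, and liver or lung epithelium, had 0 genes called in any comparison (limma). In Dp1Tyb versus WT hearts, where 48.5% of all genes were above 0 with a median log2 fold change of -0.0019, 3 of 10 cardiomyocyte markers were above 0 (median -0.077), with 9 of 10 endothelial and endocardial (0.039), 9 of 10 fibroblast and cushion (0.085), 6 of 8 epicardial (0.039) and 2 of 6 smooth muscle markers (-0.043). Of the other lists, 8 of 10 erythroid (0.12), 4 of 10 macrophage (-0.016), 3 of 7 neuron and glia (-0.0053) and 4 of 5 liver and lung markers (0.017) were above 0. The single largest values, in the same order, were those of Ttn (-0.18), Tek (0.099), Col1a1 (0.16), Tcf21 (0.11), Myh11 (0.22), Hbb-bh1 (0.43), Lyve1 (0.10), Tubb3 (0.13) and Afp (0.091), none past the threshold, and those of Myh11, Lyve1 and Tubb3 had the other sign than the median of their list. In the same order, the counts above 0 were 9, 9, 5, 5, 4, 4, 3, 1 and 0 in Dp1TybDyrk1a+/+/- versus WT, against 47.4% of all genes. Between the mutant groups they were 1, 4, 9, 3, 2, 9, 8, 5 and 5, against 52%. In these 2 comparisons the medians were 0.072 and -0.14 for cardiomyocyte markers and -0.12 and 0.13 for liver and lung markers. The part of these levels in the values of the members was not tested. Erythroid markers varied most between hearts, from a mean log2 value of 11.63 to 13.63, with SDs of 0.595, 0.461 and 0.451 in WT, Dp1Tyb and Dp1TybDyrk1a+/+/- hearts. How far blood left in the hearts enters the values of the members was not tested.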

How the data were processed

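Normalized counts on a log2 scale were deposited by the authors as 1 table of 48795 genes in 20 hearts (polyA mRNA, KAPA mRNA HyperPrep). The transformation and strand setting are not given in the sources used here. In their processing notes the authors named Trimmomatic 0.36, STAR 2.5.2a, RSEM 1.2.31, DESeq2 and GRCm38, without their roles. Because the table holds no counts, limma 3.58.1 in R 4.3.3 was used (lmFit and eBayes, trend on, a mean for each genotype over the 20 hearts) on the 15304 genes with a mean back-transformed value of at least 10, with Benjamini-Hochberg adjusted p under 0.05 as the threshold. Depth is unknown, so no counting interval was given. Each heart is a separate embryo and replicate numbers, given here in order of deposit, pair no samples. The smallest root mean square difference between any 2 of them over the genes that vary was 0.0524.

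Gene names and exon lengths came from GENCODE mouse release 39 (44565 genes named), and promoters and positions from RefSeq GRCm38.p6. Correlations used values with genotype means subtracted and 100000 permutations within genotypes, in Python 3.11.15 with numpy 2.4.6, scipy 1.17.1 and pandas 2.3.3. Scripts were tested on simulated data. Genes named were the 10 members, Dyrk1a, Rbm3 and Cirbp, up to 5 called genes of each list or the largest change where none was called, and the 10 genes most and 5 least alike. The members and lists were chosen with earlier results of these data known. Alternatives tried were other filters, normalizations, limma settings, heart weights, lane as a covariate, only the groups compared, and leaving out each heart. Those for the upstream genes and Rbm3, and library number as a covariate or a trend subtracted, were added after the data were seen.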

Additional observations from a re-analysis of the deposited data

Results flagged for a closer look

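Nr4a1 in Dp1Tyb heart 4 stood apart from the other 4 Dp1Tyb hearts. Its log2 value was 7.747 and the next highest of the group was 7.539, a gap that made up 0.905 of the range of the group, above Dixon's critical value for 5 samples. Of 30 groups examined, 10 genes in 3 genotypes, this was the only 1 past that limit, and chance alone takes about 1 in 20 groups past it. The same heart was above the mean of its genotype in all 10 genes.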

How the results depend on the processing

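The count of 0 members called held in each of the 3 comparisons, and for lane and library number, under every alternative run. Of 1248 fold changes recomputed for the members, Creb1, Crem, Rps6ka1 and Rbm3, 56 had the other sign, none of them past the threshold, and the cause was not tested. In Dp1Tyb versus WT, Nr4a1 was at -0.00497 and Egr3 at -0.0040 with each heart centred on its median, and at -0.0099 and -0.000948 after quantile normalization. Egr1 between the mutant groups was at -0.0028 and -0.0019 under these, and Creb1 in Dp1TybDyrk1a+/+/- versus WT at 0.00495 when centred. Lane as a covariate took Fos in that comparison to 0.023, and heart weights took Egr1 to -0.043. Library number as a covariate took Nr4a1 to -0.013, Atf3 to 0.0040 and Egr3 to -0.0014 in Dp1Tyb versus WT, Fos to 0.014 and Creb1 to 0.000986 in Dp1TybDyrk1a+/+/- versus WT, and Fos to -0.0044 and Egr1 to -0.025 between the mutant groups.

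Leaving out 1 heart at a time gave, in Dp1Tyb versus WT, -0.023 to 0.00696 for Fosb, -0.0069 to 0.066 for Fos, -0.043 to 0.014 for Nr4a1, -0.072 to 0.030 for Atf3, -0.011 to 0.014 for Egr3, -0.014 to 0.0044 for Egr2, -0.0042 to 0.085 for Egr1, -0.029 to 0.0082 for Junb, -0.127 to -0.103 for Creb1 and -0.143 to -0.11 for Crem. In Dp1TybDyrk1a+/+/- versus WT it gave -0.03 to 0.0148 for Creb1, -0.045 to 0.088 for Egr1, -0.056 to 0.0022 for Jun and -0.0026 to 0.044 for Ier2. Between the mutant groups it gave -0.00537 to 0.061 for Nr4a1, -0.102 to 5.21e-05 for Atf3 and -0.044 to 0.095 for Egr1.

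Heart weights called 3 other rapid-response genes in Dp1Tyb versus WT (Btg1, Maff and Cebpd) and 2 between the mutant groups (Klf10 and Klf2), and 1 upstream gene in Dp1TybDyrk1a+/+/- versus WT (Nab1) and 5 between the mutant groups, Rps6ka1 at 0.087 among them. In Dp1Tyb versus WT they called Rps6ka3, at -0.082, beside Rps6ka1, Creb1 and Crem. The share of all genes called with heart weights is not given here, so these counts cannot be set against it. Klf10 was the 1 gene called between the mutant groups with a minimum of 100 normalized counts, without WT replicate 6 and without Dp1TybDyrk1a+/+/- replicate 1, so that leaving out hearts gave 0 to 1. Nab1 was called without WT replicate 6 (range 0 to 1), and the upstream count in Dp1Tyb versus WT ran from 1, without Dp1Tyb replicate 1, to 3. Quantile normalization took 1 pair of members, Fos and Junb, past the threshold, and leaving out hearts gave 0 to 2 pairs, with 2 (Egr2 and Atf3 beside it) without WT replicate 3. The same 2 pairs passed with a library number trend subtracted. Of the relations with lists, 1 passed after quantile normalization (Atf3 with the other rapid-response genes), 1 by rho and 2 with lane means subtracted (Fosb with upstream genes beside it), 2 with a library number trend subtracted (Atf3 with hypoxia-induced genes beside it), and 0 to 1 when hearts were left out (without WT replicate 1 or 10). The median percentile of the members' spread among all genes tested was 68.8 in the main setting. It was 73.9 by the median absolute deviation and 66.6 to 72.6 when WT hearts were left out.

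No paired analysis was possible because the labels do not say which hearts were littermates, so litter is not in the fits. The replicate numbers used here follow the order of deposit and pair no hearts. Depth is unknown, and the shrinkage of weak genes limits what Egr3, Fosb, Egr2, Fos and Junb can show.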
